A study of Mus musculus with 12 samples.

Results

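The genotype by bleomycin (bleo) interaction asks, gene by gene, whether bleo changed the RNA of sorted lung mesenchymal cells by a different amount in mice labelled Pear1-/- than in wild-type (*WT*) mice. It was computed as the log2 change from vehicle to bleo in the libraries labelled Pear1-/- minus the log2 change from vehicle to bleo in *WT*, in 1 model with a mean for each of the 4 groups. All 12 libraries of the series entered it, and 17418 of the 40760 genes in the count table passed the filter on low counts and were tested. Each genotype gave a vehicle group and a bleo group, 4 groups of 3 libraries in all, from male mice on a C57BL/6 background. RNA came from lung cells sorted by flow cytometry for CD140a, the protein product of *Pdgfra*. Bleo was aerosolized into the trachea, and the time from bleo to the sort is not given in the labels. The Pear1-/- mice carried the gene in every cell as a knockout-first (tm1a) allele, in which a splice acceptor cassette between exons of *Pear1* traps the transcript. The labels do not say whether the 3 libraries of a group came from separate mice, so p-values measure only the spread between these libraries, which may be technical.

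Bleo injures the alveolar epithelium and is followed by inflammation and scarring. In the scarring lung, fibroblasts turn into contractile, matrix-secreting cells that express smooth muscle actin, fibrillar collagens and the enzymes that hydroxylate and cross-link collagen. Monocyte-derived macrophages enter at the same time, present antigen on MHC class II and release chemokines. PEAR1 is a transmembrane receptor with EGF-like repeats, first described in platelets and endothelium, and the study addresses its part in fibroblast activation.

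Total counts ranged from 6702948 to 10447101 per library, and 3 counts, the level taken as the floor of detection in a library, equalled 0.287 to 0.448 CPM, the count scaled to a common library total. *Pear1* (ENSMUSG00000028073, chr3:87747890-87824306, GRCm38, as for every position given here) had normalized counts of 576, 545 and 519 in the WT vehicle libraries, 511, 501 and 547 in Pear1-/- vehicle, 256, 239 and 266 in WT bleo and 355, 372 and 344 in Pear1-/- bleo. The values of the vehicle groups overlapped, with no clear fall in the libraries labelled Pear1-/- (difference of -0.078 on the log2 scale, edgeR adjusted p = 0.47), and in bleo they were higher in those labelled Pear1-/-. These counts do not tell reads before the cassette from reads after it, so the genotype is given here as labelled. The *Pear1* interaction was 0.56 ± 0.11 (SE, edgeR quasi-likelihood test, adjusted p = 0.000849). *Pdgfra*, the sort marker, had normalized counts of 4802, 4195 and 4698 in the WT vehicle libraries, 4166, 4203 and 4125 in Pear1-/- vehicle, 1348, 1338 and 1394 in WT bleo and 2403, 2369.9 and 2402 in Pear1-/- bleo, and its interaction was 0.94. *Ptprc*, which encodes the leukocyte antigen CD45, was highest in *WT* bleo, with normalized counts of 3010.0, 3855 and 3043 in the WT vehicle libraries, 4016, 3918 and 3519.5 in Pear1-/- vehicle, 7579, 7727 and 7542 in WT bleo and 3448, 3241 and 3405 in Pear1-/- bleo. Reads of *Ptprc* were thus present in every library, and its interaction was -1.40 ± 0.12 (adjusted p = 7.85e-07). *Epcam*, an epithelial marker, had an interaction of -0.82 (adjusted p = 0.000913) and *Pecam1*, an endothelial marker, one of -0.22 (adjusted p = 0.127). The latter was -0.32 (edgeR adjusted p = 0.0031) without *WT* vehicle replicate 2 and -0.04 (adjusted p = 0.799) without *WT* vehicle replicates 1 and 3.

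*WT* vehicle replicate 2 stood apart from *WT* vehicle replicates 1 and 3. The chi-square statistic per degree of freedom between pairs of libraries, which is near 1 where counts differ by sampling noise alone, was 21.2 and 21.8 between *WT* vehicle replicate 2 and replicates 1 and 3, but 1.73 to 2.67 between *WT* vehicle replicate 2 and the 3 Pear1-/- vehicle libraries. It was 1.58 between *WT* vehicle replicates 1 and 3, 1.44, 4.31 and 4.82 within Pear1-/- vehicle and 1.35 to 1.49 within each bleo group. Summed reads of olfactory and vomeronasal receptor genes, a list added after the data were seen because lung cells are not known for them, came to 1096 and 1125 CPM in *WT* vehicle replicates 1 and 3, 285 to 360 CPM in the other 4 vehicle libraries and 22.6 to 32.5 CPM in the bleo libraries. Of 67 such genes tested, 4 were past both criteria described next and higher and 1 lower, shares under the 8.61% and 7.06% of all genes. The part of these differences between vehicle libraries in the interactions was not tested. Where the count or printed median of a gene list, or the interaction of a gene that the naming rule picked, lost its call or moved by over 1.5 times without *WT* vehicle replicate 2, or without *WT* vehicle replicates 1 and 3, that value is given where the list or gene is described. Counts of 4 members or fewer also moved by 1 to 3 with other single libraries left out.

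A gene was called past both criteria where its adjusted p was under 0.05 and its interaction was larger than 1 in size on the log2 scale, a fold of 2 between the responses. By that rule 2729 of the 17418 genes were called, 15.7% of those tested. In 1500 the interaction was higher than 0, 8.61% of genes tested, and in 1229 it was lower, 7.06%. Under an adjusted p of 0.05 alone, 6442 genes were called, 37.0%. The interaction was above 0 in 3110 of them (17.9% of genes tested) and below 0 in 3332 (19.1%). The response itself passed an adjusted p of 0.05 in 11838 genes in *WT* (68.0%) and in 10852 in Pear1-/- (62.3%), and Pearson's r between the 2 responses over the 17418 genes was 0.748, a description across genes, which are not independent replicates.

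The called genes were sorted by the responses behind the difference. In 348 genes both genotypes responded in 1 direction at an adjusted p under 0.05 and the response was larger in Pear1-/-, and in 567 it was smaller. In 431 genes, 2.47% of those tested, both responses passed and ran in opposite directions (86 with each response also past a fold of 2). Another 857 responded in *WT* alone, 507 in Pear1-/- alone and 19 in neither. A call in 1 genotype alone says only which response passed its own threshold, and the interaction is the test of the difference. In 995 of the 1500 higher genes and 1139 of the 1229 lower genes, a difference that adds to the interaction passed in the bleo groups alone. That is, the bleo groups differed at an adjusted p under 0.05 in the direction of the interaction. The vehicle groups did not pass in the reverse direction, but could differ in the same one, as in *Jchain* (0.58, edgeR adjusted p = 0.0455). A vehicle difference that did not pass is not shown to be absent.

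The calls differed with expression level. Of the 5507 genes with a mean of at least 5 on the log2 CPM scale, 277 were higher (5.03%) and 356 lower (6.46%). The lower ones comprised 170 genes with a response that was smaller in Pear1-/-, 84 in *WT* alone, 60 opposite, 26 larger and 16 in Pear1-/- alone. The higher ones had 79 smaller, 71 opposite, 66 in *WT* alone, 39 larger and 22 in Pear1-/- alone. By the rule given above, 234 of the 277 higher genes and 342 of the 356 lower genes passed in the bleo groups alone. At a mean log2 CPM of 3 or more, 602 of 10703 genes were higher (5.62%) and 704 lower (6.58%). Below 3, 898 of 6715 genes were higher and 525 lower, and 509 of those 898 passed in the bleo groups alone by that rule.

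**Figure D1:**
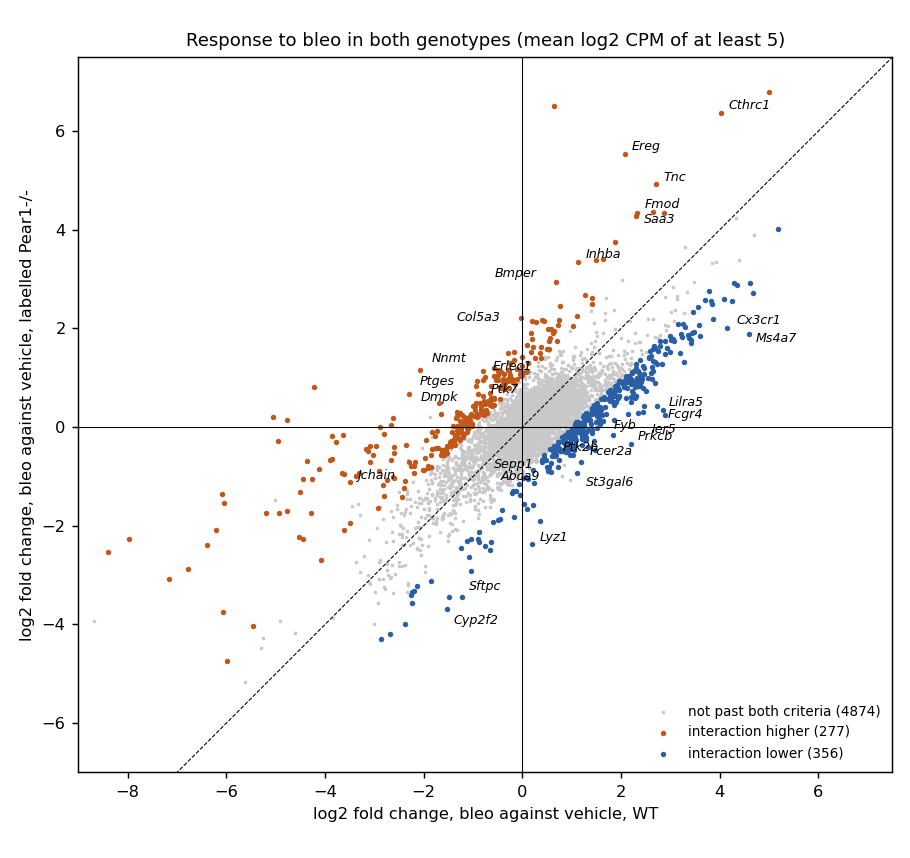
Each point is 1 of the 5507 genes with a mean log2 CPM of 5 or more, with the log2 fold change from vehicle to bleo in *WT* on the x axis and in the libraries labelled Pear1-/- on the y axis (3 libraries per group). Points past both criteria are coloured by the sign of the interaction, 277 higher and 356 lower, and the dashed line marks equal responses. The genes named for the size of their interaction or for opposite responses are labelled.

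Of 10 tested fibrillar collagens, the rope-like collagens of scar tissue, 8 were past both criteria and higher and 0 lower (8.61% and 7.06% of all genes). Their median interaction was 1.49, against -0.0012 over all genes tested. The response was larger in Pear1-/- in 3 of the 8, passed its threshold in Pear1-/- alone in 4 and ran in opposite directions in 1. *Col1a1* (ENSMUSG00000001506, chr11:94936224-94953042), the main chain of type I collagen, had normalized counts of 33474, 31492 and 32191 in the WT vehicle libraries, 30988, 29779.6 and 33804 in Pear1-/- vehicle, 42477, 42433 and 42504 in WT bleo and 138603, 144439 and 143477 in Pear1-/- bleo. Only the Pear1-/- bleo libraries lay far above the others, while the vehicle groups overlapped. Bleo raised *Col1a1* by 0.40 in *WT* and 2.18 in Pear1-/- on the log2 scale, an interaction of 1.77 ± 0.07 (SE, adjusted p = 5.57e-10).

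*Col5a3* (ENSMUSG00000004098, chr9:20770050-20815067), a minor chain that regulates fibril assembly, gave a plainer contrast. Its normalized counts were 342, 259.8 and 287 in the WT vehicle libraries, 278, 246 and 263 in Pear1-/- vehicle, 287, 294 and 284 in WT bleo and 1222, 1208 and 1226 in Pear1-/- bleo. The *WT* libraries overlapped between vehicle and bleo, and the Pear1-/- bleo libraries stood alone. The response was -0.024 in *WT* (adjusted p = 0.832) and 2.22 in Pear1-/-, with an interaction of 2.24 ± 0.13. *Col11a1*, another fibril nucleating chain, was low, at 39.5, 46.9 and 35.4 normalized counts in *WT* bleo and 209, 235 and 239 in Pear1-/- bleo, and its interaction of 3.59 was 2.65 without *WT* vehicle replicates 1 and 3. The 2 tested fibrillar collagens that were not called, *Col11a2* and *Col27a1*, had interactions of 0.36 and 0.91.

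Of 20 other collagens tested, 11 were higher and 2 lower, with a median of 1.40 that was 0.91 without *WT* vehicle replicates 1 and 3. *Col7a1*, the anchoring fibril collagen, and *Col8a2* had interactions of 2.01 and 2.29. *Col17a1*, a hemidesmosomal collagen, was also higher, although bleo lowered it in both genotypes, with responses of -3.46 in *WT* and -1.64 in Pear1-/-, and its interaction of 1.82 was 1.16 without *WT* vehicle replicates 1 and 3. *Col14a1*, which marks adventitial fibroblasts, was lower, at -1.24, as was *Col6a5*, whose fold is not given because each Pear1-/- bleo library held 3 counts or fewer. Basement membrane genes had 3 of 22 higher (6 without *WT* vehicle replicate 2), against 8.61% of all genes, *Nid2*, *Col18a1* at 1.29 and *Lamb1* at 1.0, and 2 lower, against 7.06%. *Nid2*, a nidogen that links laminin to collagen IV, responded in opposite directions, -0.57 in *WT* and 1.03 in Pear1-/-, and the lower ones were *Lamb3*, an epithelial laminin chain, at -1.25 and *Col4a4* at -1.13.

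Enzymes that process collagen had 11 of 29 members higher and 1 lower (8.61% and 7.06% of all genes) and a median of 0.77. Of the 12 called, 6 had opposite responses, 3 a larger response in Pear1-/-, 2 a response in Pear1-/- alone and 1 a smaller one. *Lox*, the copper oxidase that starts collagen and elastin cross-links, had normalized counts of 1389, 1273 and 1528 in the WT vehicle libraries, 1305, 1356 and 1216 in Pear1-/- vehicle, 1585, 1636 and 1563 in WT bleo and 5803, 5534 and 5861 in Pear1-/- bleo. Bleo raised it by 0.20 in *WT* and by 2.15 in Pear1-/-, an interaction of 1.95 ± 0.11 (adjusted p = 1.33e-08). *P4ha3*, a prolyl 4-hydroxylase subunit, and *Loxl2*, a related cross-linking oxidase, had interactions of 1.91 and 1.70. The 1 lower member was *P3h2*, a prolyl 3-hydroxylase, at -1.65.

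Matricellular proteins, which bind the matrix and signal to cells, had 9 of 22 members higher and 1 lower (8.61% and 7.06% of all genes), with a median of 0.93. *Cthrc1* (ENSMUSG00000054196, chr15:39076932-39087121), a secreted protein used to mark the fibroblasts of fibrotic lung, had normalized counts of 24.3, 30.4 and 35.5 in the WT vehicle libraries, 27.5, 47.3 and 14.2 in Pear1-/- vehicle, 470.2, 508 and 492 in WT bleo and 2491, 2476 and 2551 in Pear1-/- bleo. Bleo raised it in both genotypes, and the Pear1-/- bleo libraries were above the *WT* bleo libraries without overlap. The responses of 4.03 and 6.37 gave an interaction of 2.34 ± 0.32 (adjusted p = 5.7e-05). *Tnc*, tenascin C of wounds and scars, had 2.22, which was 1.36 without *WT* vehicle replicates 1 and 3, where its counts were 353 and 329 against 151 in replicate 2. *Spp1*, osteopontin, which macrophages and injured stroma secrete, had 1.78, from 27805, 28190.2 and 27334 in *WT* bleo and 86045, 88309 and 89373 in Pear1-/- bleo. The lower member was *Nov*, at -1.21, and 2 members were lower without *WT* vehicle replicate 2.

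Elastic fibre genes had 5 of 17 members higher and 0 lower, with a median of 0.74. *Eln*, tropoelastin, rose by 0.43 in *WT* and 2.15 in Pear1-/-, an interaction of 1.72 ± 0.11 (adjusted p = 2.68e-08). *Fbln2*, a fibulin of vessel walls and elastic fibres, fell by 1.23 in *WT* and rose by 0.25 in Pear1-/-. The other 3 were *Fbn2* at 2.95, *Mfap2* at 1.25 and *Ltbp1* at 1.20, and *Fbn2*, a fibrillin, was 1.54 without *WT* vehicle replicates 1 and 3. Small leucine-rich proteoglycans, which coat collagen fibrils, had 1 of 11 higher and 0 lower, or 2 higher without *WT* vehicle replicates 1 and 3. That member was *Fmod*, fibromodulin, with responses of 2.33 and 4.33 and an interaction of 2.0. Against the shares of all genes, 8.61% higher and 7.06% lower, the collagen, processing, matricellular and elastic lists each held a larger share of higher members.

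Of 17 tested genes of the contractile apparatus, 12 were past both criteria and higher and 0 lower (8.61% and 7.06% of all genes). Their median was 1.22, with a quartile range from 0.82 to 1.44. The response was larger in Pear1-/- in 3 of the 12, opposite in 3, past its threshold in *WT* alone in 3 and in Pear1-/- alone in 2, and smaller in 1. *Acta2* (ENSMUSG00000035783, chr19:34241090-34255590), smooth muscle actin and the usual mark of the myofibroblast, had normalized counts of 3022, 3152 and 2963 in the WT vehicle libraries, 2966, 2870.2 and 3287 in Pear1-/- vehicle, 2733, 2668 and 2667 in WT bleo and 7754, 7822 and 7846 in Pear1-/- bleo. Bleo lowered it in *WT*, where all 3 bleo libraries lay under all 3 vehicle libraries, and raised it in Pear1-/-. The responses were -0.17 (adjusted p = 0.0295) and 1.36 (adjusted p = 1.2e-10), with an interaction of 1.53 ± 0.091 (adjusted p = 2.07e-08). *Des*, the muscle intermediate filament desmin, had an interaction of 1.86, and *Tpm2*, a tropomyosin, one of 1.56 with opposite responses of -0.25 and 1.31. *Myh11*, the heavy chain of mature smooth muscle myosin, was not called, at -0.24.

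Many genes of this kind are known to be driven by serum response factor through the CArG box, so the 250 bases before the start of each gene were searched for it on both strands in the RefSeq promoter table (GRCm38.p6). Of the 17 contractile genes 13 had an entry, and 2 of those 13, 15.4%, held the box, against 1.42% of the 11777 tested genes with an entry. *Acta2* was among those with an entry and without a match in this window. Among genes with opposite responses and a higher interaction at a mean log2 CPM of 5 or more, the box was in 4 of the 48 with an entry, 8.33%, and among those with a higher interaction and a larger or a smaller response it was in 0 of 24 and 2 of 31. With a lower interaction it was in 1 of 44 with opposite responses, 3 of 125 with a smaller response and 1 of 19 with a larger one. The stretches around both matches are shown because one of these genes was called and the other was not, *Myl9*, a myosin light chain, at 1.28 and *Cnn2*, calponin 2, at 0.48. They lie at chr2:156775267-156775348 and chr10:79988508-79988589, both on the plus strand, with the box in capitals, its last base 152 and 47 bases before the start of the gene.
Myl9: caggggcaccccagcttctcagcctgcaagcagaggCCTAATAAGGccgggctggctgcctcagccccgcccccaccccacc
Cnn2: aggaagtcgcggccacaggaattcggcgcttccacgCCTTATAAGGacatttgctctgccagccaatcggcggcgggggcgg

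Markers of activated fibroblasts had 10 of 17 members higher and 0 lower (1 lower without *WT* vehicle replicates 1 and 3), with a median of 1.43 that was 0.89 without *WT* vehicle replicates 1 and 3. Over all genes, 8.61% were higher and 7.06% lower. Summed normalized counts of the activated fibroblast markers were 4759 to 5354 in WT vehicle, 5241 to 5656 in Pear1-/- vehicle, 11292 to 11597 in WT bleo and 25564 to 25668 in Pear1-/- bleo. *Adam12*, a metalloprotease-disintegrin of activated stroma, was low, at 51.4, 53 and 58.7 in *WT* bleo and 225, 219 and 247 in Pear1-/- bleo, and had an interaction of 3.40, or 2.44 without *WT* vehicle replicates 1 and 3. *Inhba*, the activin A subunit of the TGF-beta family, had responses of 1.13 and 3.35 and an interaction of 2.22 ± 0.19. Mesenchymal transcription factors had 5 of 27 higher, against 8.61% of all genes, and 0 lower, and 3 higher, nearer that share, without *WT* vehicle replicates 1 and 3. *Snai1*, a repressor linked to epithelial-mesenchymal transition, had an interaction of 1.42, and the T-box factors *Tbx2* and *Tbx5* had 1.47 (0.87 without those libraries) and 1.29, each with opposite responses. In *Tbx2* the *WT* vehicle libraries, at 420, 216 and 361 normalized counts, overlapped the *WT* bleo libraries, at 239, 199 and 195. The others were *Gli3*, a hedgehog effector, at 1.16 and *Hic1* at 1.11.

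Resident fibroblast markers did not follow 1 direction. For the counts given next, the shares of all genes were 8.61% higher and 7.06% lower. Markers of alveolar fibroblasts, the lipid-rich cells beside the alveoli, had 4 of 16 higher and 0 lower, but 7 of 16 without *WT* vehicle replicate 2 and 0 of 16 without *WT* vehicle replicates 1 and 3, when their median went from 0.70 to 0.028. *Npnt*, an integrin ligand of the alveolar wall, had 6607, 2790.4 and 6342 normalized counts in *WT* vehicle and 2602, 2519.6 and 2694 in Pear1-/- vehicle, and its interaction of 1.59 was 0.69 without those libraries. The other members were *Limch1*, *Itga8* and *Figf*, at 1.16, 1.02 and 1.01, the first 2 of which were 0.53 and 0.50 without those libraries. Adventitial fibroblast markers had 0 of 17 higher and 2 lower, against 8.61% and 7.06% of all genes, or 1 lower without *WT* vehicle replicates 1 and 3. The 2 were *Pi16*, at -1.27 (-0.91 without them), and *Col14a1*, both of which bleo lowered in both genotypes and more in Pear1-/-.

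**Figure D2:**
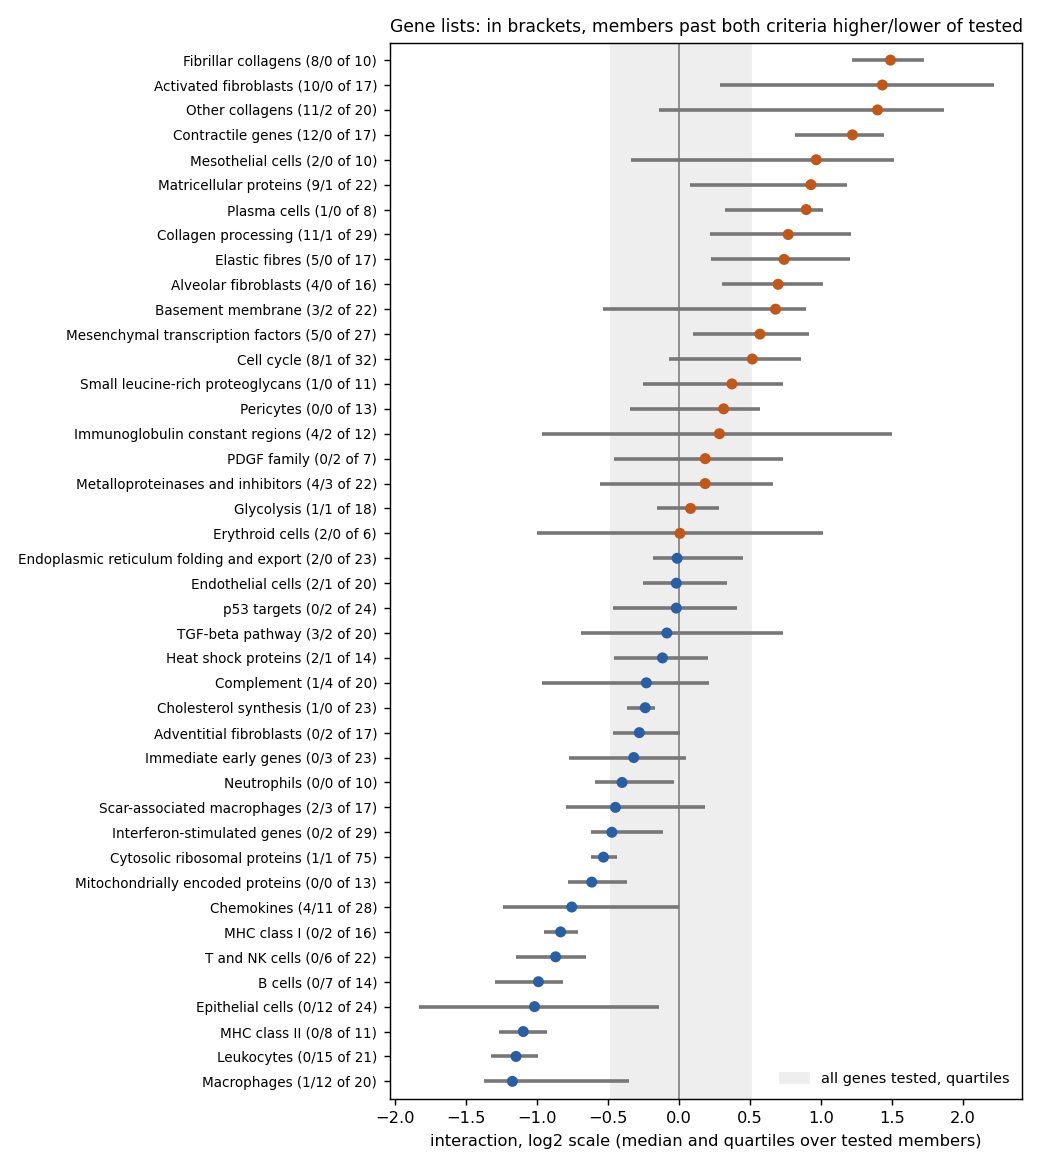
Median interaction (point, log2 scale on the x axis) and quartiles (bar) over the tested members of each gene list, with the number past both criteria higher and lower in brackets. The grey band is the quartile range over all 17418 genes. The medians of fibrillar collagens, activated fibroblast markers and contractile genes lie to the right of the band, and those of macrophage, leukocyte and MHC class II genes to its left.

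In the TGF-beta pathway 3 of 20 were higher and 2 lower (1 without *WT* vehicle replicates 1 and 3), against 8.61% and 7.06% of all genes. The median was -0.084, or -0.15 without *WT* vehicle replicate 2 and 0.14 without replicates 1 and 3. With each single library left out in turn it ranged from -0.29 to -0.037. *Tgfb2*, a ligand, had an interaction of 1.16, while *Tgfbr1*, the type I receptor, had -1.33, with responses of 1.96 in *WT* and 0.63 in Pear1-/-. Besides *Inhba*, the other called members were *Acvr1*, a type I receptor of the family, at 1.15 and *Tgif1*, a corepressor, at -1.08. In the PDGF family 0 of 7 were higher and 2 lower, against the same shares of all genes. Without *WT* vehicle replicate 2 there was 1 higher and 2 lower, and without replicates 1 and 3 there was 1 of each. *Pdgfb*, the B chain made by macrophages and endothelium, had normalized counts of 17, 35.5 and 24 in the WT vehicle libraries, 33.1, 37.1 and 44.7 in Pear1-/- vehicle, 257, 280.4 and 266 in WT bleo and 62.2, 73.1 and 69.6 in Pear1-/- bleo, all 3 *WT* bleo libraries above every other, and an interaction of -2.53 ± 0.27 (adjusted p = 4.36e-06). *Pdgfc* was called at -1.06, but its Pear1-/- bleo and *WT* bleo libraries overlapped and the vehicle groups differed, and it was -1.70 without *WT* vehicle replicate 2 and -0.33 without *WT* vehicle replicates 1 and 3.

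Proteases and their inhibitors differed by member. *Timp1*, a metalloproteinase inhibitor raised in scarring tissue, had responses of 1.63 and 3.40 and an interaction of 1.77 ± 0.12 (adjusted p = 7.29e-08). *Mmp12*, macrophage elastase, had 15886, 16198 and 15422 normalized counts in *WT* bleo and 3709, 3637 and 3691 in Pear1-/- bleo, and an interaction of -1.66. *Mmp13*, a collagenase, had -1.3. Over the 22 tested members, 4 were higher, against 8.61% of all genes, the others being *Mmp11* and *Mmp23*, at 1.02 and 1.08, and *Mmp10*, which held 3 counts or fewer in each Pear1-/- vehicle library and is given no fold, and 3 were lower, against 7.06%, the last being *Mmp25* at -1.17.

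*Ereg* was among the 10 largest positive interactions (mean log2 CPM of 5 or more, without immunoglobulins, T cell receptor segments and predicted genes). *Ereg* (ENSMUSG00000029377, chr5:91074622-91093646), epiregulin, a ligand of the EGF receptor, had normalized counts of 49.7, 24.4 and 43.5 in the WT vehicle libraries, 24.6, 29.7 and 26.2 in Pear1-/- vehicle, 164, 162 and 159 in WT bleo and 1256, 1252 and 1258 in Pear1-/- bleo. Bleo raised it in both genotypes without overlap, by 2.08 and 5.54, for an interaction of 3.47 ± 0.24 (adjusted p = 8.45e-08). *Bmper*, a modulator of bone morphogenetic proteins, and *Saa3*, an acute phase protein, had interactions of 2.26 and 1.97, the latter 1.21 without *WT* vehicle replicates 1 and 3.

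Some genes responded to bleo in opposite directions. *Nnmt* (ENSMUSG00000032271, chr9:48591877-48605153), nicotinamide N-methyltransferase, had normalized counts of 266, 272 and 239 in the WT vehicle libraries, 217, 235 and 251 in Pear1-/- vehicle, 167, 123 and 149 in WT bleo and 523, 517 and 505 in Pear1-/- bleo. Its bleo libraries lay below vehicle in *WT* and above vehicle in Pear1-/-, with no overlap in either genotype. The responses were -0.81 and 1.14 and the interaction 1.95 ± 0.14 (adjusted p = 1.38e-07). *Ptges*, a prostaglandin E synthase, had -0.92 and 0.92, *Ptk7*, a receptor-like pseudokinase of planar polarity signalling, -0.79 and 0.95, *Erlec1*, a lectin of the endoplasmic reticulum, -0.76 and 1.02, and *Dmpk*, a kinase of muscle cells, -0.90 and 0.68. The interaction of *Dmpk* was 1.58, and 0.99 without *WT* vehicle replicates 1 and 3.

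*St3gal6* (ENSMUSG00000022747, chr16:58468125-58524243), a sialyltransferase, ran the other way, with normalized counts of 272, 289 and 240.4 in the WT vehicle libraries, 384, 328 and 311 in Pear1-/- vehicle, 545, 596 and 565 in WT bleo and 167, 181 and 187 in Pear1-/- bleo. It was above vehicle in every *WT* bleo library and under vehicle in every Pear1-/- bleo library. Its responses of 1.10 and -0.93 gave an interaction of -2.03 ± 0.13 (adjusted p = 4.64e-08). *Abca9*, a lipid transporter of the ABC family, had responses of 0.72 and -0.81, *Fcer2a*, the B cell receptor CD23, 1.18 and -0.71, *Sepp1*, selenoprotein P, 0.59 and -0.91, and *Ptk2b*, the focal adhesion kinase relative PYK2, 0.66 and -0.59. The interaction of *Ptk2b* was -1.25, and -0.79 without *WT* vehicle replicates 1 and 3. Without *WT* vehicle replicate 2 the number of opposite genes rose from 431 to 824, and without replicates 1 and 3 it was 340, so the size of this class rests on those libraries.

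Of 21 pan-leukocyte genes, 0 were past both criteria and higher and 15 lower (8.61% and 7.06% of all genes), with a median of -1.15. All 21 had an interaction below 0 at an adjusted p under 0.05, against 19.1% of all genes. Their summed normalized counts were 37456 to 50590.1 in WT vehicle, 50109 to 52792 in Pear1-/- vehicle, 163459 to 165387 in WT bleo and 82122 to 83696 in Pear1-/- bleo. Without *WT* vehicle replicates 1 and 3, 6 of the 21 were past both criteria and lower, with a median of -0.84. *Fcer1g* and *Tyrobp*, adaptor chains of activating immune receptors, had interactions of -1.55 and -1.55. In these bulk samples fewer cells of a type and less RNA per cell cannot be told apart, and this holds for every marker list given here. The part of leukocyte RNA in the interaction of matrix and contractile genes, relative to the same total, was not tested.

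Macrophage markers had 12 of 20 members lower and 1 higher (7.06% and 8.61% of all genes), with a median of -1.17, and their summed normalized counts were 8854 to 9299.8 in WT vehicle, 8884 to 9473 in Pear1-/- vehicle, 94872 to 96600.2 in WT bleo and 36453 to 37384 in Pear1-/- bleo. *Cx3cr1* (ENSMUSG00000052336, chr9:119901616-120069879), the fractalkine receptor of monocytes and monocyte-derived macrophages, had normalized counts of 252, 246 and 213 in the WT vehicle libraries, 258, 262 and 248 in Pear1-/- vehicle, 4173, 4229 and 4165 in WT bleo and 988, 1080.5 and 1019 in Pear1-/- bleo. Bleo raised it without overlap in both genotypes, and *WT* bleo was above Pear1-/- bleo in every library. The responses of 4.16 and 2.01 gave an interaction of -2.14 ± 0.11 (adjusted p = 6.04e-09). *Adgre1*, which encodes F4/80, had -1.70, and *C1qa*, *C1qb* and *C1qc*, the chains of complement C1q made by macrophages, had -1.46, -1.37 and -1.70. In the complement list 4 of 20 were lower, against 7.06% of all genes, these and *Cd55*, a complement regulator, at -1.32, and 1 was higher, against 8.61%, *Masp1* at 1.80.

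*Ms4a7* (ENSMUSG00000024672, chr19:11321039-11336146) encodes a membrane protein of monocyte-derived macrophages. Its interaction was the most negative at a mean log2 CPM of 5 or more, outside immunoglobulins, T cell receptor segments and predicted genes. Its normalized counts were 103, 132 and 121 in the WT vehicle libraries, 113, 144 and 138 in Pear1-/- vehicle, 2863, 2809 and 2849.9 in WT bleo and 461, 481 and 503 in Pear1-/- bleo. The responses were 4.59 and 1.88, and the interaction -2.71 ± 0.14 (adjusted p = 6.04e-09). *Lilra5* and *Fcgr4*, activating receptors of myeloid cells, had -2.63 and -2.29. *Prkcb*, protein kinase C beta, had -2.53 with opposite responses of 2.19 and -0.34, *Ier5*, an immediate early gene, -2.49, and *Fyb*, an adaptor of T cells and myeloid cells, -2.14.

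*Siglec1*, CD169, was the 1 macrophage marker with a higher interaction, at 2.15 ± 0.64. Its normalized counts were 46.1, 11.2 and 59.5 in the WT vehicle libraries, 6.63, 4.64 and 2.18 in Pear1-/- vehicle, 169, 186 and 193 in WT bleo and 88.8, 111 and 101 in Pear1-/- bleo. It was lower in Pear1-/- bleo than in *WT* bleo, and the positive interaction came with vehicle libraries that ranged from 2.18 to 59.5. One library held 3 counts or fewer, so its fold is not a bound, and without *WT* vehicle replicates 1 and 3 the interaction was 0.40, leaving 0 macrophage markers higher. Its adjusted p was also not under 0.05 without Pear1-/- vehicle replicate 3. Markers of scar-associated macrophages had 2 of 17 higher, near the 8.61% of all genes, *Spp1* among them, and 3 lower, against 7.06%, *Mmp12*, *Apoe* at -1.29 and *Cd36* at -1.18.

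MHC class II genes are those through which macrophages, dendritic cells and B cells present antigen. Of 11 members 8 were lower and 0 higher (7.06% and 8.61% of all genes), with a median of -1.10. *H2-Aa* (ENSMUSG00000036594, chr17:34282744-34287823), the alpha chain of I-A, had normalized counts of 12737, 12985 and 11938 in the WT vehicle libraries, 12398, 12263 and 13469 in Pear1-/- vehicle, 68824, 68915 and 69722 in WT bleo and 26870.1, 26908 and 26731 in Pear1-/- bleo. The vehicle groups overlapped, and both bleo groups were above them. Bleo raised *H2-Aa* by 2.47 in *WT* and 1.08 in Pear1-/-, an interaction of -1.39 ± 0.071 (adjusted p = 6.04e-09). *Cd74*, the invariant chain, had -1.33, and *Ciita*, the transactivator of the class II genes, -1.28.

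Class II promoters are known for a Y box, an inverted CCAAT element bound by NF-Y, upstream of the start. CTGATTGG, searched on both strands in the 250 bases before the start, was in 4 of the 8 class II genes with an entry in the RefSeq promoter table, against 5.85% of the 11777 tested genes with an entry. The 80 bases around each match are printed because the members that were called and those that were not share it: *H2-Aa* and *H2-Eb1* (interactions of -1.39 and -1.25) were past both criteria, and *H2-Oa* and *H2-Eb2* (-0.82 and 0.14) were not. They lie at chr17:34287831-34287910 (minus strand), chr17:34305769-34305848, chr17:34092297-34092376 and chr17:34325536-34325615 (plus strand), with the match in capitals.
H2-Aa: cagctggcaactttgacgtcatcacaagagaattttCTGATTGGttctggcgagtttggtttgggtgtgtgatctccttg
H2-Eb1: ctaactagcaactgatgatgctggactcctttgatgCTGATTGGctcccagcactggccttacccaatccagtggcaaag
H2-Oa: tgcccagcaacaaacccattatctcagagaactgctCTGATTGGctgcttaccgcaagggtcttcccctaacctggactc
H2-Eb2: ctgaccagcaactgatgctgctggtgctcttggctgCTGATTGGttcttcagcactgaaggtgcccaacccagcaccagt

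In all 4 the match was on the strand of the gene, and its first base lay 51, 62, 46 and 103 bases before the start in *H2-Aa*, *H2-Eb1*, *H2-Oa* and *H2-Eb2*. GAGGAAGT, 1 form of the element of the myeloid factor PU.1, was searched the same way. It was in 14 of the 125 genes with an entry among those with a mean log2 CPM of 5 or more, a smaller response and a lower interaction, 11.2%, against 3.18% of the 11777 tested genes with an entry. Among genes of that level with a higher interaction it was in 2 of 24 with a larger response, 8.33%, in 1 of 31 with a smaller one and in 1 of 48 with opposite responses. With a lower interaction it was also in 3 of 44 with opposite responses, 6.82%, and in 1 of 19 with a larger response, 5.26%. Such a match describes letters in a window and does not show binding.

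**Figure D3:**
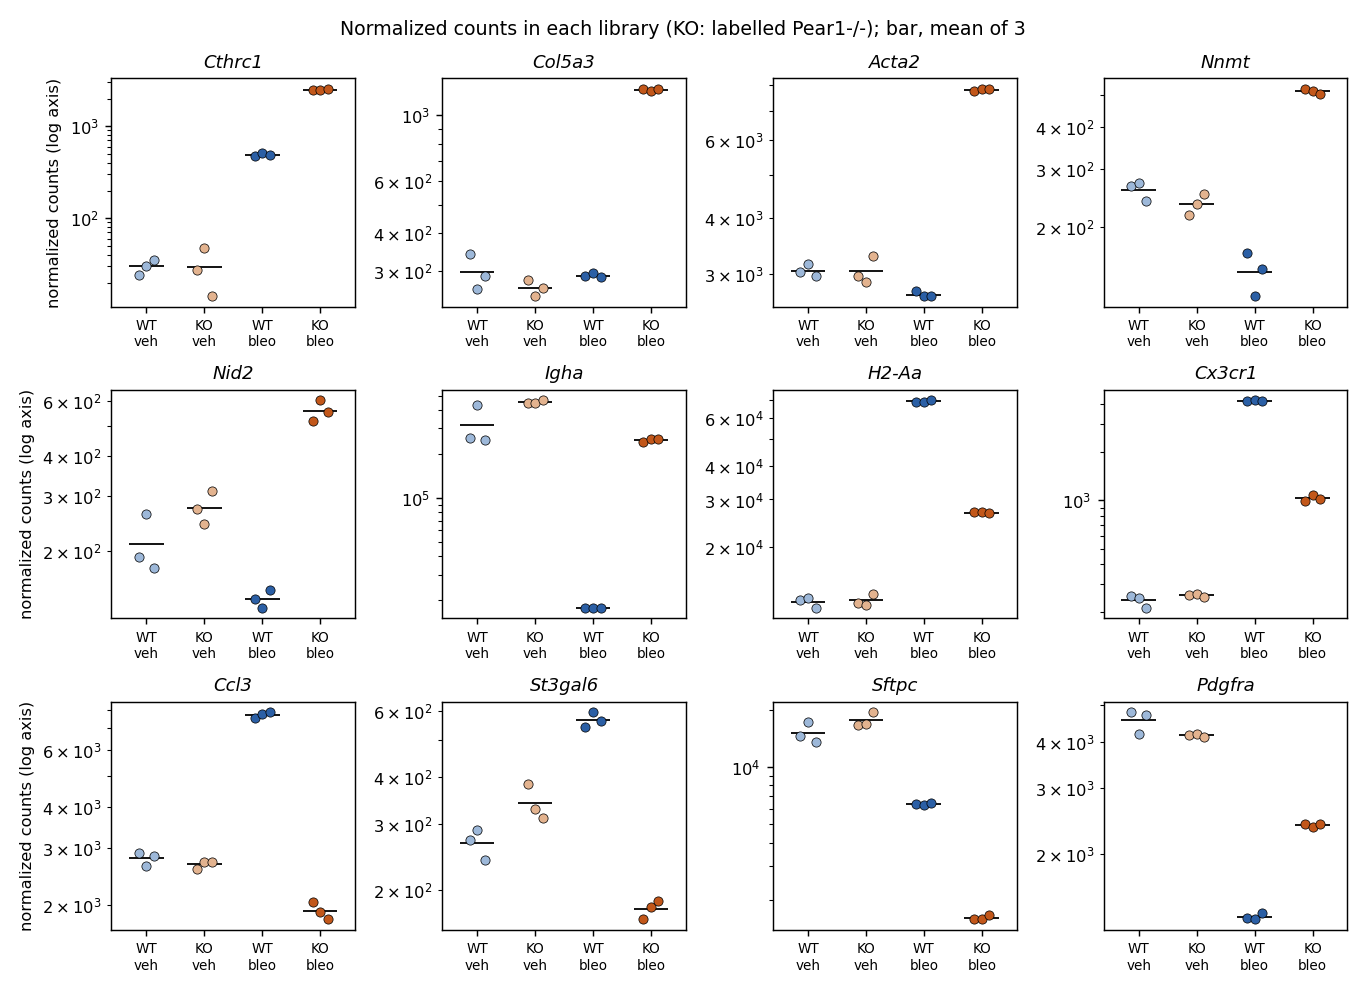
Normalized counts on a log y axis in each of the 12 libraries for 12 genes, with 3 libraries per group and a bar at the group mean. In *Col5a3*, *Acta2* and *Nnmt* the Pear1-/- bleo libraries lie above all others, and in *H2-Aa*, *Cx3cr1*, *Ccl3* and *St3gal6* the WT bleo libraries do.

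Chemokines had 11 of 28 members lower and 4 higher (7.06% and 8.61% of all genes), with a median of -0.75. *Ccl3* (ENSMUSG00000000982, chr11:83647844-83649355), a macrophage chemokine, had normalized counts of 2892, 2639 and 2836 in the WT vehicle libraries, 2596, 2714 and 2725 in Pear1-/- vehicle, 7520.1, 7764 and 7864 in WT bleo and 2044, 1914 and 1811 in Pear1-/- bleo. It was above vehicle in *WT* bleo and under vehicle in Pear1-/- bleo in every library, with responses of 1.48 and -0.47 and an interaction of -1.95 ± 0.096 (adjusted p = 6.04e-09). *Cxcl10*, an interferon-inducible chemokine, also responded in opposite directions, 0.87 and -0.45, and *Ccl8* had an interaction of -1.80. The 4 higher ones were *Cxcl14* at 1.02 and, with a mean log2 CPM under 3, *Ccl25* at 1.5, *Cxcl5* at 3.02 and *Ccl24*, whose fold is not given because each Pear1-/- vehicle library held 3 counts or fewer. Only 1 chemokine was higher without *WT* vehicle replicates 1 and 3. Interferon-stimulated genes had 2 of 29 lower, a share near the 7.06% of all genes, and 0 higher, with a median of -0.47. At an adjusted p under 0.05 alone 14 were below 0, against 19.1% of all genes, and 0 above. By both criteria there were fewer. The 2 past both criteria are *Cxcl10* and *Oas1a*. *Oas1a* was at -1.01, and at -0.43 without *WT* vehicle replicates 1 and 3. MHC class I genes had 2 of 16 lower, against the same 7.06%, and 0 higher, with 8 lower without *WT* vehicle replicate 2 and 1 without replicates 1 and 3. The 2 were *H2-Q7* at -1.08 (-0.54 without replicates 1 and 3) and *H2-Q4* at -1.08, which are near-identical copies and so uncertain. Of the 16, 14 were below 0 at an adjusted p under 0.05, against 19.1% of all genes.

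Of 14 B cell markers 7 were lower and 0 higher (7.06% and 8.61% of all genes), with a median of -0.99. There were 12 lower when *WT* vehicle replicate 2 was left out, and without replicates 1 and 3 there were 4, with a median of -0.59. *Cr2*, the complement receptor CD21, had responses of 1.08 and -0.77, and *Cd72* an interaction of -1.74. *Jchain*, the chain that joins IgA and IgM and a plasma cell marker, had normalized counts of 79134, 144677 and 87406 in the WT vehicle libraries, 160943, 168802 and 138031 in Pear1-/- vehicle, 9227, 9338 and 8683 in WT bleo and 72087, 69992 and 72519 in Pear1-/- bleo. Bleo lowered it in both genotypes and less in Pear1-/-, with responses of -3.50 in *WT* and -1.12, and an interaction of 2.38 ± 0.22 (adjusted p = 1.15e-06). It was the 1 of 8 plasma cell markers past both criteria, and 5 of 8 were without *WT* vehicle replicates 1 and 3.

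Immunoglobulin genes took 9.54% to 15.3% of all counts in the vehicle libraries, 1.91% to 1.93% in *WT* bleo and 7.92% to 7.98% in Pear1-/- bleo. *Igha* (ENSMUSG00000095079, chr12:113254830-113260236), the constant region of IgA heavy chains, had normalized counts of 257662, 434029 and 249206 in the WT vehicle libraries, 447078, 443478 and 464983 in Pear1-/- vehicle, 17816, 17789 and 17774 in WT bleo and 243041, 251514 and 251385 in Pear1-/- bleo, and an interaction of 3.27 ± 0.20 (adjusted p = 2.68e-08). *Igkc*, the kappa constant region, had 1.58, and *Iglc1* 1.47, with an adjusted p that was no longer under 0.05 in 9 of the 12 fits that leave out 1 library. The latter was 0.47 without *WT* vehicle replicate 2 and 2.49 without replicates 1 and 3. Over the 12 constant regions 4 were higher and 2 lower, against 8.61% and 7.06% of all genes. The last higher one was *Ighe*, whose fold is not given because each *WT* bleo library held 3 counts or fewer. The lower ones were *Ighd* at -1.31 and *Iglc3* at -1.41. Without *WT* vehicle replicate 2, 4 were lower, and without replicates 1 and 3, 7 were higher. Of 107 heavy chain V genes 62 were higher and 5 lower, and of 95 kappa V genes 45 were higher and 6 lower. Over all genes the shares were 8.61% and 7.06%, and the lower calls of both V lists were under the latter. Without *WT* vehicle replicate 2 there were 51 heavy V genes higher and 30 lower, and 36 kappa V genes higher and 23 lower, with the kappa median going from 1.79 to 0.53. Without replicates 1 and 3, 75 kappa V genes were higher. V genes are near-identical copies, so their counts are uncertain one by one, and 23 of the heavy V genes held no more than 3 counts in any *WT* bleo library. With every library held at no less than 3 counts, the median interaction was 2.15 for heavy V genes and 1.57 for kappa V genes.

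Epithelial markers had 12 of 24 members lower and 0 higher (1 higher without *WT* vehicle replicates 1 and 3), with a median of -1.02, in cells sorted for a mesenchymal receptor. The shares of all genes were 7.06% lower and 8.61% higher. *Sftpc* (ENSMUSG00000022097, chr14:70520949-70524081), surfactant protein C of alveolar type II cells, had normalized counts of 14480.0, 17128 and 13536 in the WT vehicle libraries, 16516, 16825 and 19433 in Pear1-/- vehicle, 6367, 6328 and 6486 in WT bleo and 1587, 1582 and 1661 in Pear1-/- bleo. Bleo lowered it in both genotypes and more in Pear1-/-, with responses of -1.22 and -3.45 and an interaction of -2.22 ± 0.12 (adjusted p = 7.4e-09). *Cyp2f2*, a cytochrome P450 of club cells, had -2.16, and *Bpifa1*, a secreted airway protein, -2.21, with an adjusted p no longer under 0.05 in 7 of the 12 fits that leave out 1 library and a value of -4.37 without *WT* vehicle replicates 1 and 3. *Lyz1*, a lysozyme gene, had responses of 0.19 and -2.38, and shares much of its sequence with *Lyz2*, so its counts are uncertain. Epithelial summed counts were 46320.5 to 65214 in WT vehicle, 61855 to 71729 in Pear1-/- vehicle, 19025 to 19188 in WT bleo and 7968 to 8151 in Pear1-/- bleo.

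T and NK cell markers had 6 of 22 lower, against 7.06% of all genes, and 0 higher, with a median of -0.87. With *WT* vehicle replicate 2 left out 14 were lower, and without replicates 1 and 3 there were 3, with a median of -0.49. *Nkg7* and *Gzmb*, granule genes of cytotoxic cells, and *Cd3d*, a T cell receptor subunit, had interactions of -1.60, -1.54 and -1.24 (the last -0.92 without replicates 1 and 3), and bleo lowered all 3 in both genotypes. Neutrophil markers had 0 of 10 in either direction by edgeR. Of the 10, 1 was below 0 at an adjusted p under 0.05, under the 19.1% of all genes. There were 4 lower without *WT* vehicle replicate 2 and 1 higher without replicates 1 and 3. *S100a8*, the neutrophil gene with the most counts, had an interaction of -0.028 (edgeR adjusted p = 0.982). It was -0.80 (edgeR adjusted p = 3.4e-07) without *WT* vehicle replicate 2 and 0.86, the reverse sign, without replicates 1 and 3. With each single library left out in turn it ranged from -0.80 to 0.24, so its sign changed there too.

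Endothelial markers had 2 of 20 higher and 1 lower, shares near the 8.61% and 7.06% of all genes. These were the transcription factors *Erg* at 1.38 and *Sox17* at 1.13, and *Car4*, a carbonic anhydrase of capillaries, at -1.53. Mesothelial markers had 2 of 10 higher, *Upk1b* at 1.70 and *Msln* at 1.58 (0.98 without *WT* vehicle replicates 1 and 3), and 1 lower without either those or replicate 2. Pericyte markers had 0 of 13 past both criteria by edgeR, with 5 above and 1 below 0 at an adjusted p under 0.05, *Pdgfrb* among the former at 0.93 (1.07 without *WT* vehicle replicates 1 and 3), but 1 past both and lower without *WT* vehicle replicate 2 and 1 higher without replicates 1 and 3. At an adjusted p under 0.05 alone, 17.9% of all genes were above and 19.1% below 0. Erythroid markers had 2 of 6 higher, against 8.61% of all genes, the globins *Hba-a1* at 2.20 and *Hbb-bs* at 1.29. Without *WT* vehicle replicate 2 there was 1 higher and 1 lower, and *Hbb-bs* was 0.79, against 1.94 without replicates 1 and 3.

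Cell cycle genes had 8 of 32 higher and 1 lower (8.61% and 7.06% of all genes), *E2f1* at -1.33, with a median of 0.52, and 4 of 32 higher without *WT* vehicle replicates 1 and 3. *Kif11*, a mitotic kinesin, had responses of 1.06 and 2.87 and an interaction of 1.80 that was 0.82 without those libraries. *Cenpf* and *Kif20a*, which act in mitosis, had interactions of 2.29 and 1.95 that were 0.73 and 0.35 without them. Targets of p53, the factor that DNA damage activates, had 0 of 24 higher and 2 lower, the latter near the 7.06% of all genes, *Gdf15*, a stress cytokine, at -1.55 and *Perp* at -2.04, and 1 higher without *WT* vehicle replicate 2. Immediate early genes had 3 of 23 lower, against the same 7.06%, and 0 higher, *Ier5* and also *Jund* at -1.59 and *Klf4* at -1.03 (-0.91 without *WT* vehicle replicates 1 and 3, when 1 was higher), the last 2 with opposite responses. Heat shock genes, against 8.61% of all genes higher and 7.06% lower, had 2 of 14 higher, *Hspb1* at 1.16 and *Cryab* at 1.05, and 1 lower, *Hspa1b* at -1.45, which was -0.90 and not called without *WT* vehicle replicates 1 and 3.

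Of 75 cytosolic ribosomal protein genes 1 was higher, *Rps4l* at 1.35, which is annotated as a transcribed processed pseudogene, and 1 lower, *Rpl30* at -1.12. But 59 of the 75 were below 0 at an adjusted p under 0.05, against 19.1% of all genes, and the median of the list was -0.53. Leaving out *WT* vehicle replicate 2 gave 7 lower, and without replicates 1 and 3 there were 0, with *Rpl30* at -0.73 and a median of -0.20. The 13 mitochondrially encoded protein genes had 0 past both criteria by edgeR. In 9 the interaction was below 0 at an adjusted p under 0.05, against 19.1% of all genes. *mt-Co1*, the one with the most counts, was at -0.058 (edgeR adjusted p = 0.636), and at -0.005 without *WT* vehicle replicates 1 and 3. Endoplasmic reticulum folding and export genes had 2 of 23 higher, a share near the 8.61% of all genes, *Kdelr3*, a retrieval receptor, at 1.41 and *Sec23a*, a coat protein of export vesicles, at 1.10, both with opposite responses, and *Sec23a* was 0.97 and not called without replicates 1 and 3. In glycolysis, also near the shares of all genes, 1 of 18 was higher, *Eno2* at 1.75, and 1 lower, *Aldoc* at -1.17, with 0 lower without *WT* vehicle replicate 2. In cholesterol synthesis 1 of 23 was higher and 0 lower, and 0 were higher without replicates 1 and 3.

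**Figure D4:**
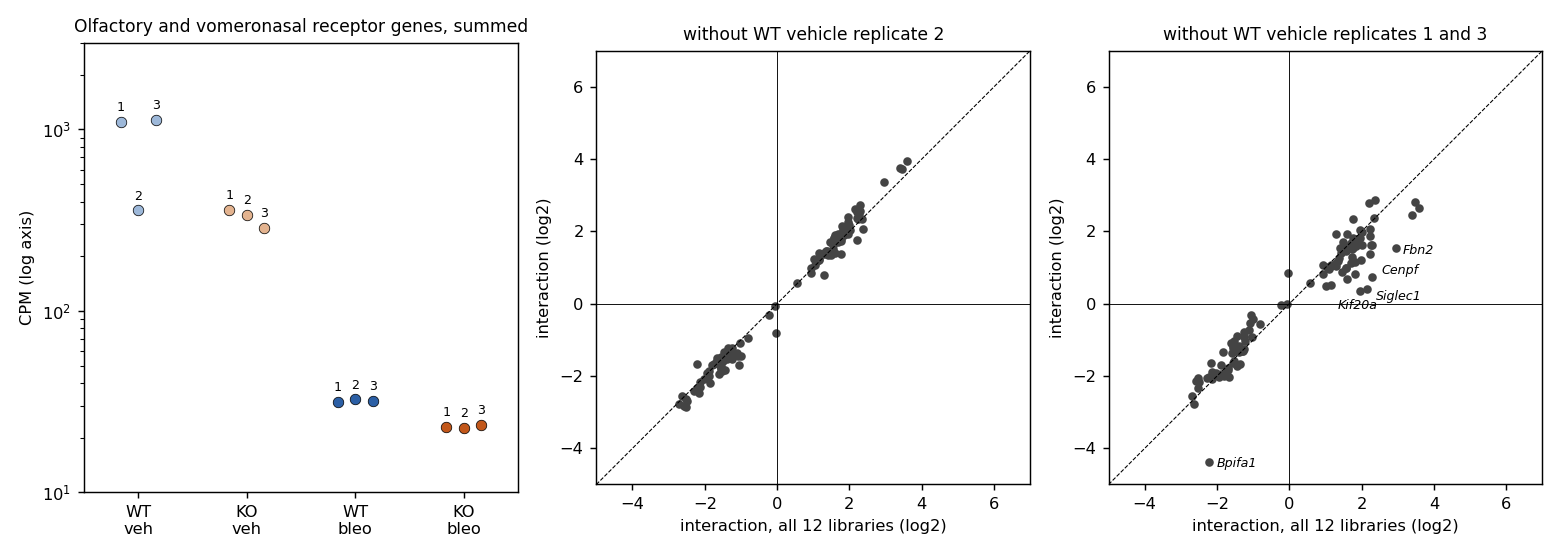
Left, summed CPM of olfactory and vomeronasal receptor genes (log y axis) in each library, numbered by replicate: WT vehicle replicates 1 and 3 lie at 1096 and 1125 CPM. Middle and right, interaction of the named genes outside the immunoglobulins with all 12 libraries (x axis, log2) and without WT vehicle replicate 2 or without replicates 1 and 3 (y axis, log2), with genes that moved by more than 1.3 labelled and the dashed line marking equal values.

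Of the 2729 genes past both criteria, 2607 (95.5%) were also called in the same direction without *WT* vehicle replicate 2, and 1706 (62.5%) without *WT* vehicle replicates 1 and 3. At a mean log2 CPM of 5 or more these were 601 (94.9%) and 443 (70.0%) of 633. Without replicates 1 and 3 the higher genes fell from 1500 to 1035 and the lower ones numbered 1236, which took the share of higher calls from 55.0% to 45.6%. In that fit *WT* vehicle has 1 library, which is assumed to vary like the other groups.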

How the data were processed

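The authors aligned reads to GRCm38 (mm10) with HISAT2. The counting program and its strand setting are not given in the sources used here, so overlapping and antisense genes are uncertain. Libraries were made from full-length cDNA of low RNA input. The deposited counts are whole numbers per gene in 12 libraries. The second deposited table, a signal of normalized counts, equals these counts divided by the DESeq2 size factor of each library, and the per-library values printed come from it. Of the tests it served only the limma alternative (values below 1 set to 1). The study names a variance stabilizing transformation, which these values do not carry.

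Counts were analysed with edgeR 4.0.16 in R 4.3.3 (filterByExpr by group, TMM factors, quasi-likelihood F test, 4 group means, two-sided), with Benjamini-Hochberg adjustment over 17418 genes. The SE is the absolute log2 difference divided by the square root of F. Alternatives used DESeq2 1.42.0 and limma 3.58.1, other factors and filters, a replicate block and leaving out libraries. The fit was tested on simulated data with known changes. The study tested pairs of groups with limma, which is an alternative here because the files hold counts. The members and the 44 gene lists were chosen with earlier results of these data known, and the olfactory and vomeronasal receptor list was added after the data were seen. Named genes were 5 checks, the 10 largest interactions in each direction and 5 opposite responders in each direction (mean log2 CPM of 5 or more, without immunoglobulins, T cell receptor segments and predicted genes), up to 3 called members per list (mean log2 CPM of 3 or more) or its member with the highest mean where none was called, *Col1a1* and *Acta2*. Some genes that the rule names are not reported here. Other genes named to complete a small count were chosen after their values were seen. Counting intervals and floors cover counting error only. Libraries within a group differed by more than sampling noise and were each counted.

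Gene positions are from GENCODE (GRCm38), for all 122 named genes. Of 17410 gene symbols tested, 11777 had an entry in the RefSeq promoter table (GRCm38.p6).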

Additional observations from a re-analysis of the deposited data

Results flagged for a closer look

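Results stand here because the response to bleo differed between the genotypes by a test of that difference, the interaction (edgeR quasi-likelihood test). Over all genes, 1500 were past both criteria and higher, 1229 were past both and lower, and 6442 had an adjusted p under 0.05. The interactions of the named genes past both criteria are given as log2 values, by the class of response. For a gene that lost its call or moved by over 1.5 times, the value in brackets is that without *WT* vehicle replicates 1 and 3, or without *WT* vehicle replicate 2 where this is stated.

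Where the response was larger in Pear1-/-, the higher interactions were 3.47 for *Ereg*, 2.34 for *Cthrc1*, 2.29 for *Cenpf* (0.73), 2.26 for *Bmper*, 2.22 for *Tnc* (1.36), 2.22 for *Inhba* and 2.15 for *Siglec1* (0.40). They were further 2.01 for *Col7a1*, 2.0 for *Fmod*, 1.97 for *Saa3* (1.21), 1.95 for *Lox*, 1.95 for *Kif20a* (0.35), 1.91 for *P4ha3* and 1.86 for *Des*. There were also 1.80 for *Kif11* (0.82), 1.78 for *Spp1*, 1.77 for *Col1a1*, 1.77 for *Timp1*, 1.72 for *Eln* and 1.42 for *Snai1*. Where the response was larger in Pear1-/-, the lower interactions were -2.22 for *Sftpc*, -2.16 for *Cyp2f2*, -1.89 for *Cxcl15*, -1.60 for *Nkg7*, -1.54 for *Gzmb*, -1.45 for *Hspa1b* (-0.90) and -1.27 for *Pi16* (-0.91). They were further -1.25 for *Lamb3*, -1.24 for *Cd3d* (-0.92) and -1.24 for *Col14a1*.

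Where the response was smaller in Pear1-/-, the higher interactions were 5.86 for *Igkv4-61*, 3.27 for *Igha*, 2.38 for *Jchain*, 1.82 for *Col17a1* (1.16), 1.58 for *Igkc*, 1.16 for *Hspb1* and 1.02 for *Itga8* (0.50). Where the response was smaller in Pear1-/-, the lower interactions were -2.71 for *Ms4a7*, -2.53 for *Pdgfb*, -2.49 for *Ier5*, -2.29 for *Fcgr4*, -2.21 for *Bpifa1* (-4.37), -2.14 for *Cx3cr1* and -2.14 for *Fyb*. They were further -1.80 for *Ccl8*, -1.74 for *Cd72*, -1.70 for *C1qc*, -1.70 for *Adgre1*, -1.66 for *Mmp12*, -1.55 for *Fcer1g* and -1.55 for *Tyrobp*. There were also -1.55 for *Gdf15*, -1.46 for *C1qa*, -1.39 for *H2-Aa*, -1.37 for *C1qb*, -1.33 for *Cd74*, -1.33 for *Tgfbr1* and -1.28 for *Ciita*. They were further -1.06 for *Pdgfc* (-1.70 without replicate 2 and -0.33) and -1.01 for *Oas1a* (-0.43).

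Where the responses ran in opposite directions, the higher interactions were 9.84 for *Ighv1-49*, at least 7.80 for *Ighv8-5*, at least 6.96 for *Ighv1-31*, 5.03 for *Igkv16-104*, 2.20 for *Hba-a1*, 1.95 for *Nnmt* and 1.84 for *Ptges*. They were further 1.77 for *Erlec1*, 1.75 for *Eno2*, 1.74 for *Ptk7*, 1.60 for *Nid2*, 1.58 for *Dmpk* (0.99), 1.56 for *Tpm2* and 1.53 for *Acta2*. There were also 1.48 for *Fbln2*, 1.47 for *Tbx2* (0.87), 1.41 for *Kdelr3*, 1.38 for *Erg*, 1.29 for *Tbx5* and 1.10 for *Sec23a* (0.97). Where the responses ran in opposite directions, the lower interactions were -2.53 for *Prkcb*, -2.03 for *St3gal6*, -1.95 for *Ccl3*, -1.89 for *Fcer2a*, -1.84 for *Cr2*, -1.59 for *Jund* and -1.53 for *Abca9*. They were further -1.5 for *Sepp1*, -1.32 for *Cxcl10*, -1.25 for *Ptk2b* (-0.79) and -1.03 for *Klf4* (-0.91).

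Where the response passed its threshold in *WT* alone, the higher interactions were 4.91 for *Igkv3-1*, 1.70 for *Upk1b*, 1.59 for *Npnt* (0.69), 1.58 for *Msln* (0.98), 1.47 for *Iglc1* (0.47 without replicate 2 and 2.49), 1.29 for *Hbb-bs* (0.79 without replicate 2 and 1.94) and 1.29 for *Col18a1*. They were further 1.16 for *Tgfb2*, 1.16 for *Limch1* (0.53) and 1.05 for *Cryab*. Where the response passed its threshold in *WT* alone, the lower interactions were -2.63 for *Lilra5*, -1.40 for *Ptprc*, -1.3 for *Mmp13* and -1.12 for *Rpl30* (-0.73).

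Where the response passed its threshold in Pear1-/- alone, the higher interactions were 3.59 for *Col11a1*, 3.40 for *Adam12*, 2.95 for *Fbn2* (1.54), 2.29 for *Col8a2*, 2.24 for *Col5a3*, 1.70 for *Loxl2* and 1.35 for *Rps4l*. Where the response passed its threshold in Pear1-/- alone, the lower interactions were -2.57 for *Lyz1*, -1.53 for *Car4* and -1.08 for *H2-Q7* (-0.54). In *Ighv8-5* and *Ighv1-31* each *WT* bleo library held 3 counts or fewer. Their values are lower bounds in all 12 libraries, with every library set to 3 counts where it held fewer. Without *WT* vehicle replicates 1 and 3, and without that floor, they were 7.65 and 6.85. The folds of *Ighv1-49* and *Siglec1* rest in part on libraries with 3 counts or fewer and are not bounds, and V genes are near-identical copies whose counts are uncertain. No explanation of any of these differences was tested.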

How the results depend on the processing

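DESeq2 size factors, TMM factors computed without immunoglobulin genes, no filter on low counts, DESeq2's Wald test and limma on log2 normalized values left the numbers of genes higher (1500), lower (1229) and at an adjusted p under 0.05 (6442) within 1.5 times. Across them higher genes numbered 1468 to 1956, lower ones 1135 to 1504 and adjusted p under 0.05 alone 5854 to 6572. The 2 other scalings moved the median interaction of all genes from -0.0012 to 0.0065 and 0.013, and without the filter, which adds genes of few counts, it was 0.41. A fit of only the genes whose mean log2 CPM was 3 or more gave 676 higher, 622 lower and 147 larger, where the fit of all genes had 602 higher and 704 lower among them. With each response required to pass a fold of 2 as well, 275 were smaller and 86 opposite. The replicate numbers did not pair the samples: the correlation of same-numbered deviations between groups was -0.161 to 0.0997 over 18 pairs, with 0 of them above 0.1. A fit with the replicate block gave 1441 higher, 1204 lower and 6147 with an adjusted p under 0.05, and 1 of the named genes lost its call, *Iglc1*, with an interaction of 1.3 and an adjusted p no longer under 0.05. Leaving out each library in turn gave 1293 to 2077 higher, 1115 to 1691 lower, 5540 to 8754 with an adjusted p under 0.05, 280 to 438 larger, 461 to 884 smaller and 366 to 824 opposite. All 6 upper ends came without WT vehicle replicate 2. Without WT vehicle replicates 1 and 3, an alternative chosen after seeing the data, 95 of the 115 named genes past both criteria stayed past both in the same direction and 20 did not, each with its value in the report. An adjusted p under 0.05 was lost by *Pdgfc*, *Siglec1*, *Oas1a*, *Cenpf* and *Kif20a*, and *S100a8* reversed to 0.86 from -0.028. In the same fit the median of adventitial fibroblast markers went from -0.28 to 0.18, of neutrophil markers from -0.40 to 0.51 and of TGF-beta genes from -0.084 to 0.14. Without WT vehicle replicate 2 these medians were -0.56, -0.80 and -0.15, *S100a8* was -0.80, and *Iglc1* and *Hbb-bs* lost their calls. With limma 6 of the 115 lost their calls and with DESeq2's test 2. The cause of these moves was not tested. With 3 counts equal to 0.287 to 0.448 CPM, depth limits immunoglobulin V genes and others of few counts.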
